A study of Mus musculus with 6 samples.

Results

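Fatty acids reach the liver bound to albumin or inside lipoproteins, and 10 genes of their uptake and binding were followed here in mouse liver RNA. The genes were chosen by name from the 18444 genes listed, and all 10 were listed with at least 1 read in each of the 6 libraries. They were the fatty acid binding proteins Fabp1, Fabp2, Fabp4 and Fabp5, the membrane fatty acid receptor Cd36, the very long-chain acyl-CoA synthetases and transport proteins Slc27a2 and Slc27a5, the lipoprotein receptor Vldlr, and the lipases Lpl and Lipc.

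The livers came from male C57BL/6 mice (C57BL/6J in the methods), given as 6 to 8 weeks of age, which were fasted for 8 h before death. In the diet model, CD was the control diet, which the study text calls a standard diet. HFD was a high fat diet of 16 weeks, whose livers the labels name NASH (nonalcoholic steatohepatitis). HFD plus JT003 received, in addition, the peptide JT003 at 500 μg per kg in daily intraperitoneal injections for 4 weeks. In the CCl4 model, the control received corn oil. The CCl4 mice received 20% carbon tetrachloride in corn oil at 5 ml per kg every 3 days for 6 weeks, and their livers are labelled as fibrosis. CCl4 plus JT003 is labelled as fibrosis after treatment with JT003, which the methods give as 3 weeks at the same dose. JT003 is a peptide agonist of both adiponectin receptors. The study also describes a high fat diet followed by a methionine and choline deficient diet, and the labels name only HFD. The methods give 6 mice per group, but each condition has 1 library here, and whether a library is 1 mouse or a pool is not stated. No difference below therefore has a replicate check.

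In the liver, Cd36 and the Slc27 proteins take part in the entry of free fatty acids, and the Slc27 enzymes couple them to coenzyme A. The Fabp proteins carry them in the cytosol. Lpl releases fatty acids from triglyceride-rich lipoproteins at the vessel wall and Lipc acts on remnants and high-density lipoproteins, whereas Vldlr takes up remnants whole. Adult hepatocytes make mainly Fabp1, while Fabp4, Fabp5 and Lpl are best known from fat, skin, muscle, macrophages and endothelium.

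Several of these genes are known targets of PPAR receptors, which bind as dimers with RXR to direct repeats of the half-site AGGTCA spaced by 1 base. The 250 bases before the start of transcription were therefore searched on both strands for AGGTCA, and for the repeat AGGTCANAGGTCA with at most 2 mismatches. The second motif holds the first, so the matches can overlap. RefSeq promoters of build GRCm38.p6 were given for 6 of the 10 genes, in 8 entries, and not for Fabp4, Fabp5, Lpl and Slc27a5. Those of Fabp1 and Slc27a2, the members with the highest levels, and of Cd36, which differed most between HFD and CD among the genes with an entry, are shown 5′ to 3′ on the strand of the gene, with matches to either motif in capitals. They lie at chr6:71199629-71199878 on the plus strand, chr2:126552774-126553023 on the plus strand and chr5:17835897-17836146 on the minus strand.
Fabp1: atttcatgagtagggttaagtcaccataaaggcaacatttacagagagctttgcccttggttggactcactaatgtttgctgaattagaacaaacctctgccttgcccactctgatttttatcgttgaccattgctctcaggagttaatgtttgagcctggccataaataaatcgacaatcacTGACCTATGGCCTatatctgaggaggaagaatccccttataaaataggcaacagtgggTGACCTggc
Slc27a2: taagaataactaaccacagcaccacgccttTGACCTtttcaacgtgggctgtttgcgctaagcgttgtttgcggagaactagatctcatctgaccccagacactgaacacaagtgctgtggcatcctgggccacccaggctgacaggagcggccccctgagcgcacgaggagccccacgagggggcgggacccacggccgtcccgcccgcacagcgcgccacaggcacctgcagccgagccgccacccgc
Cd36: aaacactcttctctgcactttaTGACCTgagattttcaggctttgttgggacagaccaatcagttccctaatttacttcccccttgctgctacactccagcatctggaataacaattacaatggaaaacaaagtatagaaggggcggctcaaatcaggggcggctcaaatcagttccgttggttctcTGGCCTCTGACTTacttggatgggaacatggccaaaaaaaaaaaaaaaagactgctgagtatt

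Fabp1 held the closest match to the repeat, TGACCTATGGCCT at -67 to -55 from the start with 1 mismatch on the reverse strand, and a further TGACCT, the reverse complement of AGGTCA, at -9 to -4. Cd36 held TGACCT at -228 to -223 and a repeat with 2 mismatches, TGGCCTCTGACTT, at -63 to -51. Slc27a2 held a single TGACCT at -220 to -215. Of the remaining entries, 1 of the Lipc starts held both motifs, and Fabp2, Vldlr and the other Lipc start held neither. Among 32851 promoters of the same length, 14.0% held AGGTCA and 3.24% held the repeat, so single half-sites are common. A match is a description of the letters and not a shown binding site, and these coordinates are of another build than the mm9 reads.

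The 6 libraries held between 19374236 and 20184557 rounded expected counts. Hepatocyte markers were high in each, with a summed level of 38600 to 51300 FPKM (fragments per kilobase of transcript, scaled to library depth), as the label liver requires. Markers of intestine and skeletal muscle were near 0, at 0.23 and 0.08 FPKM at most in sum, with Alpi, Sis, Cdx2, Ckm and Myh4 at 0. The corn oil library stood apart. Its 9 macrophage markers summed to 34.9 FPKM, against 133 to 213 FPKM in the other libraries. Of these 9, 7 were called lower than in CD, beside 3.24% of all genes called lower. Adipocyte markers were almost wholly Cfd, with counts of 454 in HFD, 166 in HFD plus JT003, 175 in corn oil and at most 2 in each of CD and the CCl4 libraries, while Lep was at 0 throughout and Adipoq had 11 counts in corn oil and at most 1 elsewhere. The calls of both CCl4 libraries over corn oil are therefore also given over CD. In bulk tissue, fewer cells of a type and less RNA per cell cannot be told apart.

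**Figure D1:**
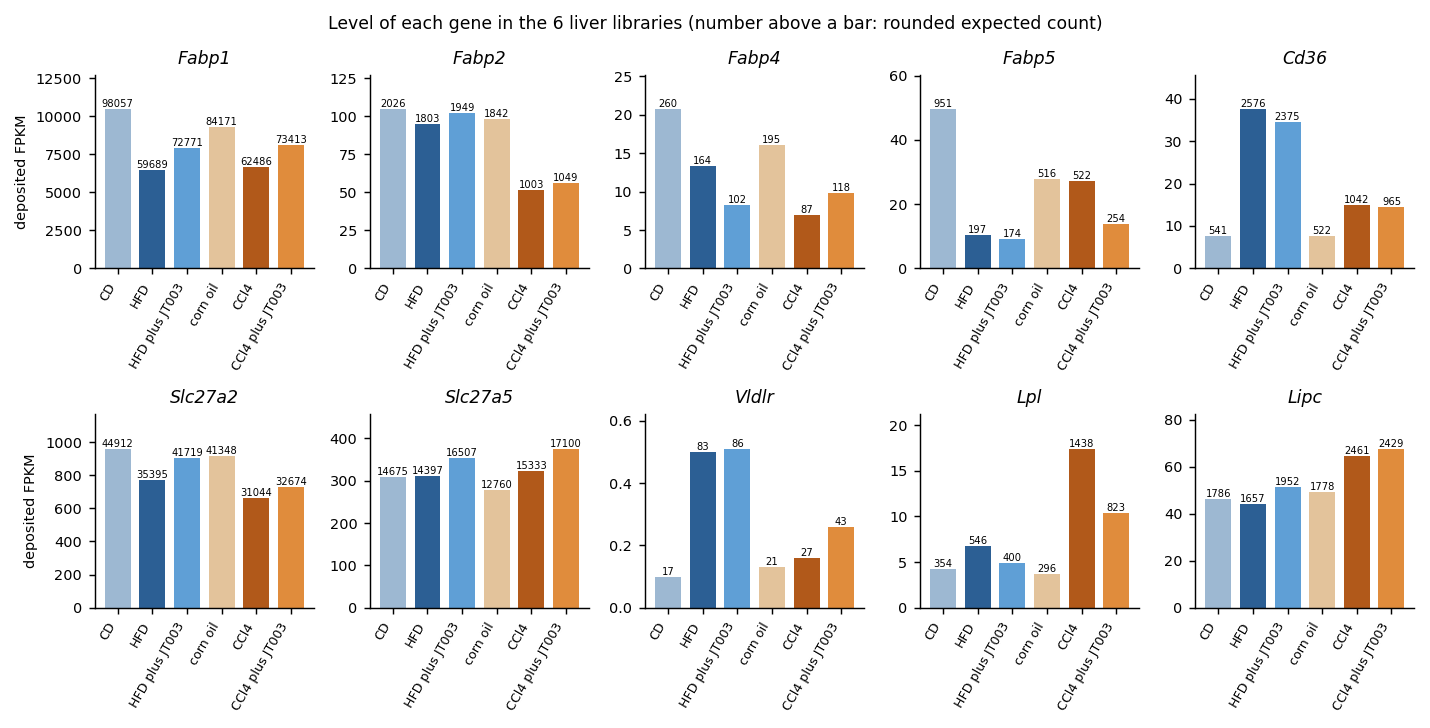
Deposited FPKM of each of the 10 genes in the 6 libraries, 1 bar per library on a linear axis from 0 that differs between panels, with the rounded expected count above each bar. Cd36 and Vldlr stand highest in the HFD libraries, Lpl in the CCl4 libraries and Fabp5 in CD, whereas Slc27a5 and Lipc span a narrow range.

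The 10 genes covered a wide range of levels. Fabp1, the liver fatty acid binding protein, ranged from 6499.8 FPKM in HFD to 10447.4 FPKM in CD and was the 5th to 14th highest gene of a library. Slc27a2 followed at 663.73 to 959.13 FPKM and Slc27a5, which also makes bile acid CoA esters, at 279.18 to 375.52 FPKM. Fabp2 reached 51.82 to 104.54 FPKM, Lipc 44.26 to 67.55 FPKM, Fabp5 9.21 to 49.49 FPKM, Cd36 7.58 to 37.45 FPKM, Fabp4 6.94 to 20.7 FPKM and Lpl 3.72 to 17.42 FPKM. Vldlr was lowest at 0.1 to 0.51 FPKM, from 17 to 86 counts. By median level the order was Fabp1, Slc27a2, Slc27a5, Fabp2, Lipc, Fabp5, Cd36, Fabp4, Lpl and Vldlr. The ranges of Fabp1, Slc27a2, Slc27a5 and Vldlr overlapped with those of no other member. The range of Lipc overlapped with those of its neighbours Fabp2 and Fabp5, and those of Fabp5, Cd36, Fabp4 and Lpl overlapped with each other.

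The first question was how the HFD and CCl4 libraries differed from their controls in these genes. A gene was called where the reads of 2 libraries differed at an adjusted p under 0.001 (two-sided exact conditional binomial test, Benjamini-Hochberg over all genes tested) and by at least 2-fold after TMM scaling. The test compares libraries, not conditions, and the 95% intervals cover counting error only. Between HFD and CD, 3 of the 10 members were called, against 5.38% of all 16973 genes tested. Cd36 and Vldlr were higher in HFD, where 2.92% of genes were called higher, and Fabp5 was lower, where 2.46% were called lower. The median log2 ratio of the members was -0.23, beside 0.00 for all genes, with 3 members above 0 and 7 below.

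Between CCl4 and corn oil, 3 members were called, against 7.18% of 17234 genes. Lpl was higher in CCl4, where 4.76% of genes were called higher, and Fabp2 and Fabp4 were lower, where 2.41% were called lower. The members' median was -0.15, beside 0.00 for all genes. With CD as the control in place of corn oil, 4 members were called, Lpl higher and Fabp2 at -1.18, Fabp4 at -1.72 and Fabp5 lower, against 9.22% of all genes, and Cd36 was 0.77 and not called. With JT003, fewer members were called, as were fewer of all genes. None was called between HFD plus JT003 and HFD, where 1.63% of 17090 genes were called, and 1 member, Fabp5, between CCl4 plus JT003 and CCl4, where 4.42% of 17393 genes were called and 2.51% called lower. At a threshold of 1.5-fold the counts were 5, 1, 6 and 2 members for HFD over CD, JT003 over HFD, CCl4 over corn oil and JT003 over CCl4, beside 11.1%, 4.38%, 13.9% and 10.6% of all genes. Had the levels of single mice varied with an assumed coefficient of variation of 0.2, the calls left would be Cd36 and Fabp5 in HFD over CD and Lpl in CCl4 over corn oil, and at 0.4 none. The shares of all genes at 0.2 were 1.06% and 2.01%.

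**Figure D2:**
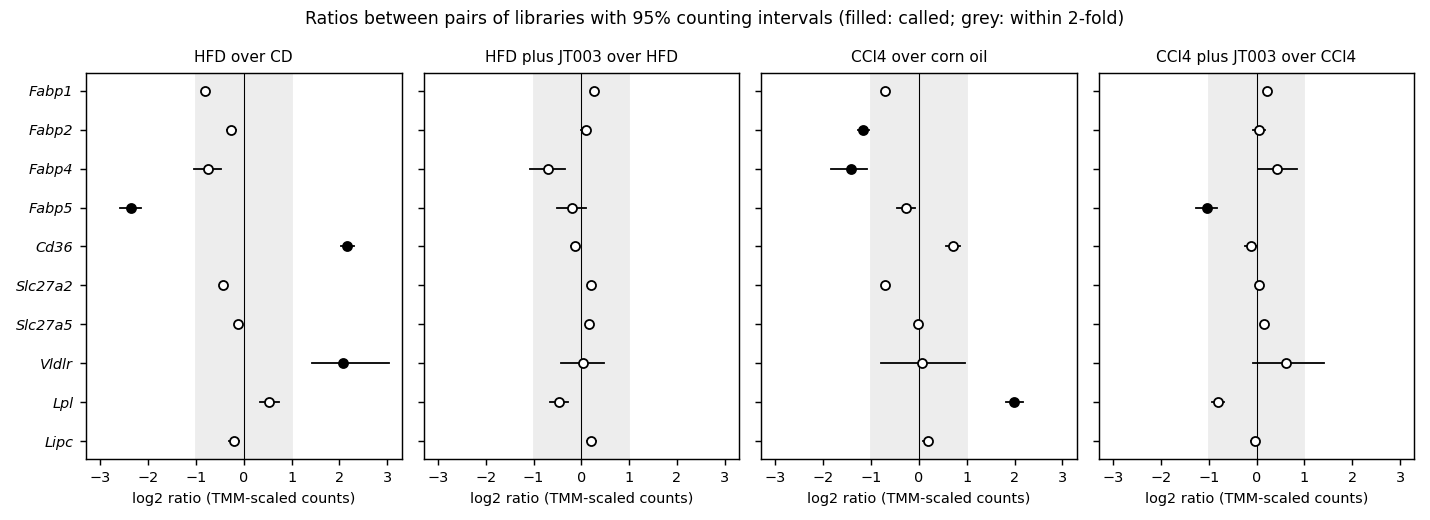
Log2 ratios of the 10 genes in the 4 main comparisons, from TMM-scaled counts with a prior count of 2, with 95% counting intervals as bars. Filled points were called and the grey band marks changes within 2-fold. Cd36, Vldlr and Fabp5 lie outside the band in HFD over CD, and Lpl, Fabp4 and Fabp2 in CCl4 over corn oil, whereas no member is called with JT003 in the diet model.

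Cd36 binds long-chain fatty acids and oxidised lipoproteins at the cell surface and is normally low in hepatocytes. In the diet model it had 541 counts in CD, 2576 in HFD and 2375 with JT003 added, and in the CCl4 model 522 with corn oil, 1042 with CCl4 and 965 with CCl4 and JT003. The HFD libraries were thus the highest, the controls the lowest and nearly equal, and the CCl4 libraries between. The log2 ratio was 2.16 in HFD over CD (95% interval 2.03 to 2.30), a 4.46-fold difference above 99.2% of genes, and 0.71 in CCl4 over corn oil (0.56 to 0.86), which was not called. The difference between these ratios was 1.45 (1.25 to 1.65). With JT003 the ratio was -0.14 (-0.22 to -0.06) over HFD and -0.12 (-0.25 to 0.01) over CCl4. Cd36 in HFD plus JT003 was still called 2.02 above CD on the log2 scale.

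Vldlr, the receptor for very low-density lipoproteins, is scarce in healthy liver. It had 17 counts in CD, 83 in HFD and 86 with JT003 added to HFD, beside 21 with corn oil, 27 with CCl4 and 43 with CCl4 and JT003. As with Cd36, both HFD libraries exceeded all others. The log2 ratio was 2.08 in HFD over CD (1.43 to 3.04) and 0.03 in HFD plus JT003 over HFD (-0.42 to 0.48). At so low a level the call depends on the scale, since on log2(FPKM + 1) the ratio of HFD over CD was 0.45 and not past 2-fold, and with a minimum of 100 counts Vldlr is not tested. In the CCl4 model it was 0.07 (-0.80 to 0.97) over corn oil and 0.62 (-0.07 to 1.41) with JT003. Only the latter interval includes a 2-fold change. Counts this low can leave a 2-fold difference uncalled, as in CCl4 plus JT003 over CD at 1.07 (0.31 to 2.05).

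Lpl, which clears triglyceride from lipoproteins and is made in liver largely outside the adult hepatocyte, had 354 counts in CD, 546 in HFD and 400 in HFD plus JT003, and 296, 1438 and 823 with corn oil, CCl4 alone and CCl4 with JT003. Both CCl4 libraries were above the other 4. The log2 ratio was 1.99 in CCl4 over corn oil (1.81 to 2.18), a 3.96-fold difference, and 1.85 (1.68 to 2.03) in CCl4 over CD. In HFD over CD it was 0.53 (0.34 to 0.73) and was not called. The difference between the models was -1.45 (-1.72 to -1.19). With JT003 it was -0.81 (-0.94 to -0.69) over CCl4 and -0.47 (-0.66 to -0.28) over HFD, both under the 2-fold threshold, and Lpl stayed called 1.17 above corn oil in CCl4 plus JT003. The CCl4 values of Lpl depend on which CCl4 reads are used. Over the further CCl4 reads described below, the JT003 ratio was -2.01 and called.

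Lipc, the hepatic lipase, moved little by comparison. From CD through HFD to HFD plus JT003 it had 1786, 1657 and 1952 counts, and from corn oil through CCl4 to its JT003 library 1778, 2461 and 2429, and it was called in no comparison. The quotient of the levels of Lipc and Lpl was 10.8 in CD, 6.56 in HFD and 10.4 in HFD plus JT003, and 13.2 with corn oil, 3.71 with CCl4 and 6.52 with CCl4 and JT003.

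Fabp5, the epidermal fatty acid binding protein, had the lowest ratio of all members in HFD over CD. CD held 951 counts, HFD 197, HFD plus JT003 174, corn oil 516, CCl4 522 and the CCl4 library with JT003 254. CD was the highest and the HFD libraries the lowest, and the 2 controls themselves differed by -0.73 (-0.89 to -0.58, corn oil over CD, not called). The log2 ratio was -2.35 in HFD over CD (-2.59 to -2.14), a 5.10-fold lower level, with 0.46% of all genes at a lower ratio. In CCl4 it was -0.27 (-0.45 to -0.09) over corn oil but -1.03 (-1.19 to -0.88), and called, over CD. The difference between the models was -2.08 (-2.36 to -1.80). With JT003 it was -1.04 (-1.27 to -0.83) over CCl4, at the threshold, and -0.98 with total reads as the scale, which ends the call, while over HFD it was -0.20 (-0.50 to 0.10).

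Fabp4, the adipocyte and macrophage fatty acid binding protein, was counted 260 times in CD, 164 in HFD and 102 in HFD plus JT003, and 195 times with corn oil, 87 with CCl4 and 118 with CCl4 and JT003. Both controls were above the 4 other libraries. The log2 ratio was -0.75 (-1.05 to -0.47) in HFD over CD, not called, and -1.43 (-1.83 to -1.08) in CCl4 over corn oil, called. With JT003 it was -0.70 (-1.08 to -0.34) over HFD and 0.42 (0.02 to 0.85) over CCl4, neither called, and the difference between these was -1.12 (-1.65 to -0.59). In HFD plus JT003 over CD it was -1.45 and called. The CCl4 values of Fabp4 depend on which CCl4 reads are used, as given below.

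Fabp2, the intestinal fatty acid binding protein, is also made in mouse liver. There were 2026 counts in CD, 1803 in HFD and 1949 with JT003 added, and 1842 with corn oil, 1003 with CCl4 and 1049 when JT003 was added. The CCl4 libraries were apart from the other 4, which lay close together. The log2 ratio was -1.16 (-1.28 to -1.05) in CCl4 over corn oil and -0.26 (-0.35 to -0.17) in HFD over CD. It was called in CCl4 over corn oil with TMM, but at -0.93 with total reads it was not. With JT003 it was 0.05 (-0.07 to 0.18) over CCl4 and 0.09 (0.00 to 0.18) over HFD.

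Fabp1 and Slc27a2, the most abundant members, were lower in the HFD and CCl4 libraries than in their controls without reaching 2-fold. In the further CCl4 reads described below, both were called lower than in corn oil, at -1.23 and -1.0. Fabp1 held 98057 counts in CD, 59689 in HFD, 72771 in HFD plus JT003, 84171 with corn oil, 62486 with CCl4 and 73413 with both CCl4 and JT003. Its log2 ratio was -0.81 in HFD over CD and -0.72 in CCl4 over corn oil, and 0.26 and 0.22 with JT003 in the diet and CCl4 models. Both controls were the highest and the JT003 libraries lay between control and injury in each model. Slc27a2 had counts of 44912, 35395 and 41719 in CD, HFD and HFD plus JT003, and 41348, 31044 and 32674 with corn oil, CCl4 and the addition of JT003. Its log2 ratio was -0.43 in HFD over CD and -0.70 in CCl4 over corn oil, with 0.21 and 0.06 for JT003. Slc27a5 had counts of 14675, 14397 and 16507 in the diet model and 12760, 15333 and 17100 in the CCl4 model, in the same order, and its 4 main log2 ratios lay between -0.12 and 0.17. The quotient of the levels of Slc27a2 and Slc27a5 was 3.10 and 3.28 in the controls and 1.93 to 2.56 in the other libraries. The whole-library scale matters for these small ratios, since total reads in place of TMM shifted the median of all genes by 0.12 in HFD over CD and 0.23 in CCl4 over corn oil, and the sign of Slc27a5 in both of these turned to 0.01 and 0.21. The share of all calls that were higher moved from 54.2% to 65.5% and from 66.4% to 81.9%.

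Seen from the control, the JT003 libraries had 4 members called in each model, Cd36, Vldlr, Fabp4 and Fabp5 over CD (5.93% of all genes called) and Lpl, Fabp2, Fabp4 and Fabp5 over corn oil (4.95%). With total reads as the scale, Lpl and Fabp5 remained called over corn oil and Fabp2 and Fabp4 did not, at -0.81 and -0.71. Of all genes, 7.16% were called there with that scale. In CCl4 plus JT003 over CD the same 4 were called, Lpl at 1.03, Fabp2 at -1.14, Fabp4 at -1.31 and Fabp5 at -2.08, against 10.3% of all genes, and Vldlr was 1.07 and not called. These comparisons share a control or a JT003 library with those above, and no member was called between corn oil and CD, where 5.42% of genes were.

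The CCl4 library is not the only set of CCl4 reads. A comparison table of the study holds a CCl4 column of expected counts whose sum is 2.97 times that of the CCl4 library. All but 24 genes reach at least their library count in it, and those fall short by 0.99 counts or less, so the column appears to hold the library and further reads whose samples are not named. After subtraction of the CCl4 library, the remaining reads are a second, disjoint set. Fabp4 had 650 remaining counts beside 87 in the library, a log2 ratio of 1.84 (1.53 to 2.19), and Lpl 6861 beside 1438, a ratio of 1.20 (1.12 to 1.29). These 2 members were called, against 1.64% of all genes, and higher, against 1.42%. The other 8 members lay between -0.58 for Lipc and 0.14 for Fabp5, with Cd36 at -0.05 (-0.16 to 0.06). Against corn oil, the remaining reads gave Lpl 3.17 and Fabp2 -1.40, in the direction of the library, and called Fabp1 lower at -1.23 and Slc27a2 lower at the 2-fold threshold as well, but Fabp4 was 0.38 where the library gave -1.43. With JT003, Lpl was -2.01, Fabp4 -1.40 and Fabp5 -1.17 against the remaining reads, all called lower, where the library gave -0.81, 0.42 and -1.04. Of all genes, 9.54% were called in the remaining reads over corn oil, and 3.27% were called lower with JT003 against the remaining reads.

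**Figure D3:**
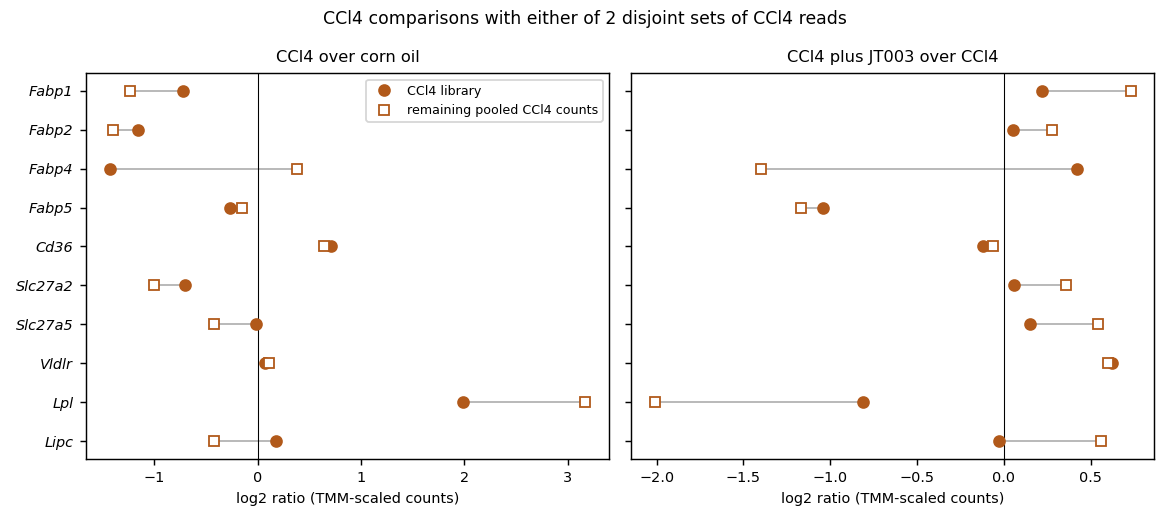
Log2 ratios of the 10 genes in CCl4 over corn oil (left) and CCl4 plus JT003 over CCl4 (right), with the CCl4 library (filled circles) or with the remaining reads of the pooled CCl4 column (open squares), and no intervals drawn. The circle and square lie near each other for Cd36, Fabp5 and Vldlr, on opposite sides of 0 for Fabp4 and Lipc, and far apart for Lpl.

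The remaining reads also differed in markers of other cells. Of the 9 macrophage markers 2 were called higher than in the CCl4 library, Marco at 2.58 and Cd5l at 1.08, beside 1.42% of all genes. The median over that list was 0.78, and the 6 endothelial markers had a median of 0.74 with none called. Hepatocyte markers had a median of 0.03. Adipocyte markers were near 0 in both sets, with Adipoq at 1 and 3 counts and Cfd at 2 and 17 counts. The part of these cells in the Fabp4 and Lpl values was not tested.

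Across the libraries, the summed macrophage markers were 147, 166 and 213 FPKM in CD, HFD and HFD plus JT003 and 34.9, 133 and 189 FPKM with corn oil, CCl4 and the addition of JT003. In CCl4 over corn oil 8 of the 9 were called higher, with Lpl, beside 4.76% of all genes. In HFD over CD 1 was called higher, beside 2.92% of all genes. Within the list the markers differed. Beside CD, CCl4 held more of 4 of the 9, with Gpnmb at 0.43 FPKM in CD and 10.89 FPKM in CCl4, Trem2 at 1.01 and 8.85 FPKM, Cd68 at 8.67 and 11.69 FPKM and Lyz2 at 37.04 and 49.93 FPKM, and less of the other 5, such as Marco at 7.35 and 4.01 FPKM and Cd5l at 44.25 and 26.91 FPKM. Stellate cell and myofibroblast markers summed to 12.4, 24.3 and 17.7 FPKM in CD, HFD and HFD plus JT003 and to 10.9, 31.7 and 18.0 FPKM in the CCl4 model, in the same order. Most of the sum in CCl4 was Col1a1, a fibril collagen, at 20.41 FPKM, which was the only 1 of the 6 called in CCl4 over corn oil, at 3.13, and was -1.51 with JT003. Acta2, the smooth muscle actin, was 3.27, 2.07 and 0.90 FPKM with corn oil, CCl4 and the addition of JT003, and Lrat, of retinoid-storing stellate cells, 1.28, 1.30 and 2.45 FPKM. Endothelial markers summed to 61.5, 66.3 and 79.6 FPKM and to 37.9, 25.2 and 38.6 FPKM. In the CCl4 model the lowest sum and the lowest Fabp4 level were both in the CCl4 library, whereas from CD through HFD to HFD plus JT003 the sum was higher in each and the Fabp4 level lower, at 20.7, 13.35 and 8.26 FPKM. Bile duct markers ranged from 2.27 FPKM in CD to 13.9 FPKM in CCl4. Their part in the values of Lpl and Fabp4 was not tested. Intestinal markers were near 0 in all libraries, as given above, beside 51.82 FPKM or more of Fabp2.

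**Figure D4:**
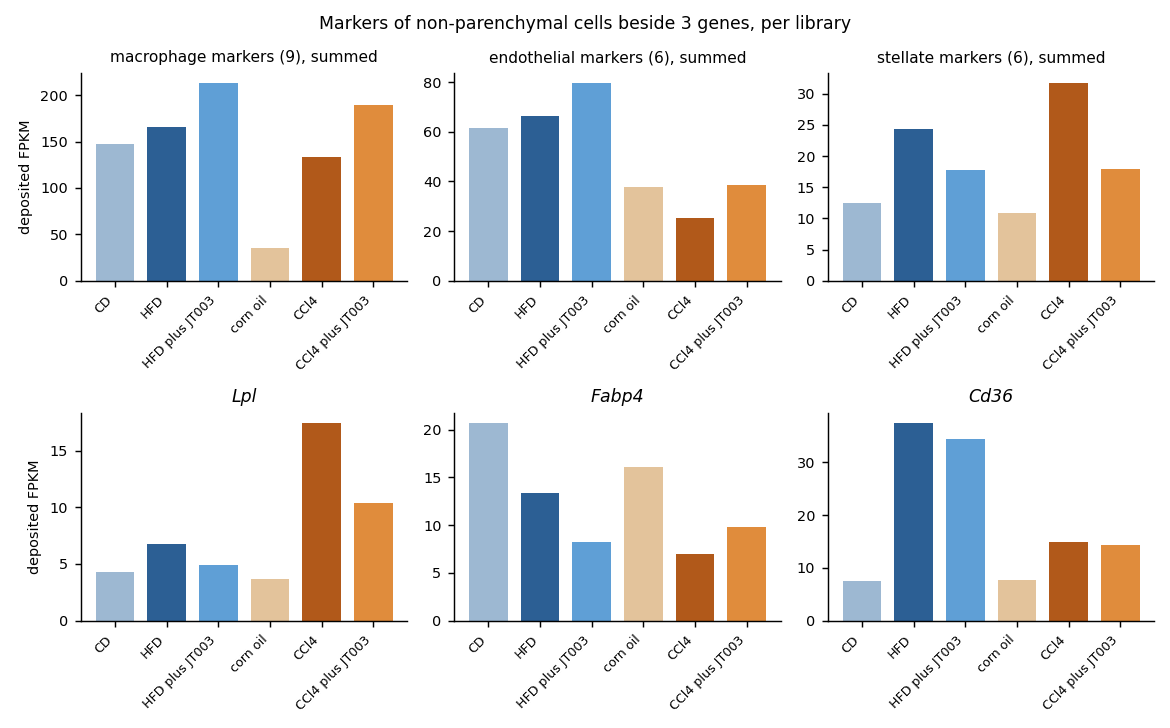
Summed FPKM of macrophage, endothelial and stellate cell markers (upper row) beside the FPKM of Lpl, Fabp4 and Cd36 (lower row) in the 6 libraries, on linear axes from 0 that differ between panels. The stellate sum and Lpl are both highest in CCl4, where most of that sum is Col1a1 at 20.41 FPKM. Of the other stellate markers, not drawn singly, Reln, Lrat and Pdgfrb are higher in HFD than in CCl4. Acta2 is highest in corn oil and Des in CCl4. Macrophage markers are lowest in corn oil. Cd36 is highest in the HFD libraries, whose macrophage markers sum to 166 and 213 FPKM beside 147 FPKM in CD. CCl4 plus JT003 has 189 FPKM of these markers and a lower Cd36 level, at 14.42 FPKM.

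Of 43 other genes of fatty acid uptake, in 7 lists, 40 could be tested in HFD over CD, and 3 were called higher and 4 lower, with a median of -0.05, beside 2.92% of all genes called higher and 2.46% lower. Among those higher were Angptl8, a secreted inhibitor of lipoprotein lipase, at 1.23, and the nuclear receptor Pparg at 1.35 with 100 and 275 counts. The acyl-CoA synthetase Acsl1 was lower at -1.33, the transport protein Slc27a1 at -1.26, and the lipase activators Apoa5 and Apoc2 at -1.32 and -1.06. Angptl8 and Acsl1 were also called between the controls, with corn oil over CD at 2.13 and -1.02. In CCl4 over corn oil 1 of 40 was called higher, Angptl8 at 1.01, and 2 lower, Slc27a1 at -1.66 and the caveolar protein Cav1 at -1.17, with a median of -0.07. These 3 of 40 are near the 7.18% of all genes called there. With JT003, only Slc27a3 was called in the diet model, at -2.17 with 29 counts in HFD and 5 in HFD plus JT003, beside 1.63% of all genes, and none of 39 in the CCl4 model, beside 4.42%.

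The genes whose profiles over the 6 libraries lay closest were sought for the 6 members that spanned at least 1 on the log2 scale, among 9376 genes with a mean of at least 100 counts. Likeness was the root mean square difference of log2 levels, each centred on its mean over the libraries, and over so few libraries it is a description. Cd36 lay closest to Hsd3b3 at 0.197, Samd9l at 0.220 and Cebpe at 0.248. Vldlr lay closest to Gbp7 at 0.112, Keg1 at 0.138 and Slc17a3 at 0.147, and Lpl to Tagln2 at 0.105, Slc44a3 at 0.161 and Sparc, a matrix protein, at 0.169. Fabp5 lay closest to Elovl5, which elongates polyunsaturated fatty acids, at 0.152, to the acetyl-CoA carboxylase Acacb at 0.225 and to the mitochondrial carrier Slc25a22 at 0.237. Elovl5 had counts of 29860 in CD, 6287 in HFD, 5100 in HFD plus JT003, 15995 with corn oil, 18625 with CCl4 and 6412 with CCl4 and JT003. Fabp2 lay closest to Slc16a10 at 0.095, Bcap29 at 0.106 and Ecm1 at 0.112, and Fabp4 to Slc7a2 at 0.216, Inca1 at 0.220 and Aass at 0.222.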

How the data were processed

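Liver RNA was sequenced in 6 libraries, 1 per condition, and grouped by GEO's labels. Per the labels, the submitters' processing notes name HISAT, Bowtie2, RSEM and build mm9, without versions. For every gene and library the authors deposited its expected count, an unnormalized estimate of its reads, and its FPKM, that count per kilobase of transcript scaled to library depth. Of the expected counts, 69.9% to 70.9% were whole numbers. The authors' 4 comparison tables also hold fold changes and p-values, which were not used, and of their expression columns 7 were not used and the pooled CCl4 column was.

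Expected counts were rounded to whole numbers. TMM factors (edgeR 4.0.16, R 4.3.3) were taken within each model of 3 libraries, with values of 0.941 to 1.04 and 0.884 to 1.09, or over all 6 for corn oil over CD. The two-sided exact conditional binomial test was run on every gene with at least 1 read in either library, with Benjamini-Hochberg adjustment (scipy 1.17.1, numpy 2.4.6 and pandas 2.3.3 in Python 3.11.15), and genes were called at an adjusted p under 0.001 and an absolute log2 ratio from 1 upwards (prior count 2). Clopper-Pearson intervals of 95% and, for differences between models, normal intervals cover counting error only. With 1 library per condition, no test of the spread between mice can be made.

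All members are named. Of the pathway and marker genes, those called in a main comparison could be named with values, and not all are. Other markers are named where they check a tissue or show how a list is made up, chosen after their values were seen, and 1 called pathway gene is not reported here. The members and lists were chosen with earlier results of these data known. A RefSeq gene table held 18403 of the 18444 identifiers, 17666 with the same symbol, all 10 members included. Promoters are RefSeq's on GRCm38.p6. Alternatives were other scalings (DESeq2 1.42.0 size factors), count minimums, prior counts, thresholds, assumed variation between mice, FPKM in place of counts, and the pooled CCl4 counts. CD in place of corn oil was added after seeing the data. Plots were made with matplotlib 3.10.9.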

Additional observations from a re-analysis of the deposited data

Results flagged for a closer look

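The ratio of injured to control liver differed between the models, by at least 1 on the log2 scale with an interval that leaves out 0, for 4 members. The difference, diet minus CCl4 model, was 1.45 (95% counting interval 1.25 to 1.65) for Cd36, 2.01 (0.94 to 3.07) for Vldlr, -2.08 (-2.36 to -1.80) for Fabp5 and -1.45 (-1.72 to -1.19) for Lpl. Beneath these lie ratios of 2.16 in HFD over CD and 0.71 in CCl4 over corn oil for Cd36, 2.08 and 0.07 for Vldlr, -2.35 and -0.27 for Fabp5 and 0.53 and 1.99 for Lpl. The Fabp5 value rests in part on which control is used, since corn oil over CD was -0.73 and CCl4 over CD was -1.03. HFD was not compared with corn oil.

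The JT003 ratio differed between the models for Fabp4 by -1.12 (-1.65 to -0.59), from -0.70 over HFD and 0.42 over CCl4. With the pooled CCl4 counts the difference was 0.33 and with the remaining CCl4 reads alone 0.70. All intervals cover counting error only, each ratio compares 2 libraries, and variation between mice cannot be told apart from the difference between models.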

How the results depend on the processing

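No paired analysis was possible because the labels give no replicate numbers and each condition has 1 library, and for the same reason no replicate was left out. Of 963 alternative log2 ratios of members, 854 kept their direction and their side of the threshold, 42 lost and 48 gained the call, and 23 turned direction, 4 of which also lost or gained the call.

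Without a fold threshold the members called were 10 in HFD over CD, 6 in JT003 over HFD, 7 in CCl4 over corn oil, 5 in JT003 over CCl4, 7 in HFD plus JT003 over CD, 8 in CCl4 plus JT003 over corn oil and 2 in corn oil over CD, beside 23.4%, 14.2%, 26.1%, 24.0%, 26.7%, 20.5% and 28.7% of all genes, and the pathway genes called in the 4 main comparisons 24, 22, 20 and 20. At 1.5-fold the members were 5, 1, 6 and 2 in the main comparisons and 1 in corn oil over CD, and the pathway genes 12, 3, 10 and 6. The shares of all genes were 11.1%, 4.38%, 13.9% and 10.6% in the main comparisons and 15.0% in corn oil over CD. With an assumed coefficient of variation of 0.2 between mice, 2 members were called in HFD over CD and in HFD plus JT003 over CD, 1 in CCl4 over corn oil, and 0 in JT003 over CCl4 and in CCl4 plus JT003 over corn oil, with 0 pathway genes in each main comparison, and with 0.4, 0 members and 0 pathway genes were called. In that order, 1.06%, 1.19%, 2.01%, 0.949% and 0.796% of all genes were called at 0.2, and 0.111% in JT003 over HFD. At 0.4 the share was at most 0.342%.

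With total reads, members called were 0 in JT003 over CCl4 and 2 in CCl4 plus JT003 over corn oil, and pathway genes 5 in CCl4 over corn oil. Of all genes, 4.57%, 7.16% and 8.67% were called in these comparisons. With FPKM, members called were 0 in JT003 over CCl4 with either pseudocount, and 1 or 2 in CCl4 plus JT003 over corn oil with a pseudocount of 1 or 0.1. The shares of all genes with 1 and 0.1 were 2.84% and 8.95% in the former comparison, and 3.41% and 12.3% in the latter. Pathway genes were 0 in JT003 over HFD with 1, and 7 in CCl4 over corn oil and 1 in JT003 over CCl4 with 0.1. Beside these, 1.42%, 13.4% and 8.95% of all genes were called. A minimum of 100 counts left 0 pathway genes in JT003 over HFD, and an adjusted p under 0.05 gave 5 in CCl4 over corn oil. Of all genes, 1.94% and 9.52% were called. CD in place of corn oil gave 6 pathway genes in CCl4 over control, beside 9.22% of all genes.

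Ratios that turned were near 0, apart from those with the pooled counts. Slc27a5 was 0.01 (total reads) and 0.00 (FPKM) in HFD over CD and 0.21 in CCl4 over corn oil. Lipc was 0.04 and 0.06 in JT003 over CCl4. In corn oil over CD, Fabp2 was -0.08 (total reads) and -0.08 or -0.09 (FPKM), and Slc27a2 -0.06 and -0.07. With the pooled CCl4 counts and the remaining reads, CCl4 over corn oil was 0.00 and 0.38 for Fabp4 and -0.19 and -0.42 for Lipc, and JT003 over CCl4 was -1.03 and -1.40 for Fabp4 and 0.34 and 0.56 for Lipc, with 3 members and 1 pathway gene called. In JT003 over CCl4, 4.05% and 4.55% of all genes were called with the pooled counts and the remaining reads. The remaining reads gave 5 pathway genes in CCl4 over corn oil, beside 9.54% of all genes. The Fabp4 difference between models with JT003 became 0.33 and 0.70. Causes were not tested.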

Other observations

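The listed length of Vldlr fell into separate values, 8243 bases in CD, corn oil and CCl4 and 8327 bases in HFD, HFD plus JT003 and CCl4 plus JT003, from 17 to 86 counts per library. The quotient of the levels of Fabp1 and Fabp2 was 68.4 in HFD and 77.1 in HFD plus JT003, 99.9 in CD, 94.3 with corn oil, 129 with CCl4 and 145 with CCl4 and JT003. The quotient of Fabp5 and Fabp4 was 2.39, 0.785 and 1.12 in CD, HFD and HFD plus JT003 and 1.73, 3.93 and 1.41 with corn oil, CCl4 and the addition of JT003. Of the lists of other uptake genes, Fabp6, Pmp2 and Fabp9 were at 0 in all libraries.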
